A study of Arabidopsis thaliana with 2 samples.

Results

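The genes described here carry the names of families that build, loosen or remodel polysaccharides of the plant cell wall. They are 122 of the 27444 nuclear protein-coding genes of Arabidopsis thaliana, and were taken by name: a symbol or synonym had to be EXPA, EXPB, EXLA, EXLB, XTH, CESA, CSLA, CSLB, CSLC, CSLD, CSLE, CSLG, GSL or CALS followed directly by digits. A gene was called bound when the summit of a deposited peak lay inside its bounds or within 1000 bp of either end. "Bound" means only this. Of the 122 genes, 14 were bound, or 11.5% (exact Clopper-Pearson 95% interval 6.42% to 18.5%, counting error only), and 12.7% of all nuclear protein-coding genes were bound by the same rule. The share of the families was therefore near that of all genes.

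The data are from chromatin immunoprecipitation followed by sequencing (ChIP-seq) with an antibody against green fluorescent protein (GFP), in untreated whole seedlings of the ecotype Col-0 at 10 days after sowing, grown at 22 °C with a photoperiod of 16 h. The IBH1-GFP group carried p35S::IBH1-GFP, in which the strong and widely active 35S promoter drives IBH1 fused to GFP. The control group carried p35S::GFP, the tag alone, although the library protocol names Col-0 for that library. Each group was 1 library made from the pooled DNA of 3 ChIP experiments. IBH1, a helix-loop-helix protein counted among the atypical members of the basic helix-loop-helix (bHLH) class, restrains cell elongation. The title of the tagged sample names its relative IBL1, whereas its line and the study's design name IBH1. Because the promoter is not IBH1's own, the protein may be present in cells and at levels unlike those of the native gene. The study deposited 1 list of 2945 peaks, 2944 of them on the 5 nuclear chromosomes, and the list names no sample. It was read as the IBH1-GFP list because the design is about occupancy by IBH1. With 1 library per group there is no spread between replicates, so no difference below carries a test. The depth of the libraries is unknown.

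Growing plant cells are held by a wall of cellulose microfibrils tethered by xyloglucan and embedded in pectin. Expansins loosen this wall without cutting it, and xyloglucan endotransglucosylase/hydrolases (XTH) cut and rejoin or hydrolyse xyloglucan chains. Cellulose synthases (CESA) at the plasma membrane spin cellulose, the cellulose synthase-like (CSL) proteins make other wall polysaccharides, and the glucan synthase-like proteins (GSL, also named CALS) make callose, a beta-1,3-glucan laid down at cell plates, plasmodesmata, pollen walls and sites of attack. Brassinosteroid hormones promote elongation in part through wall genes of this kind, and IBH1 acts against the growth-promoting bHLH factors of that pathway.

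The counts by family were small and are given beside the number that the 12.7% of all genes would give. Among 35 expansin genes, 4 were bound (11.4%, with 4.46 at the share of all genes), and among 33 XTH genes 5 were (15.2%, with 4.21). None of the 10 CESA genes was bound, where that share would give 1.27, and 2 of the 32 CSL genes were (6.25%, with 4.08). Of the 12 callose synthase genes 3 were bound, with 1.53 at the share of all genes. No test of a difference between families was made. The nearest summit lay at a median of 12.5 kb from the genes of the families and 13.8 kb from all protein-coding genes. Within 5000 bp of a gene a summit was found for 35 of the 122 genes (28.7%, against 27.7% of all genes).

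**Figure D1:**
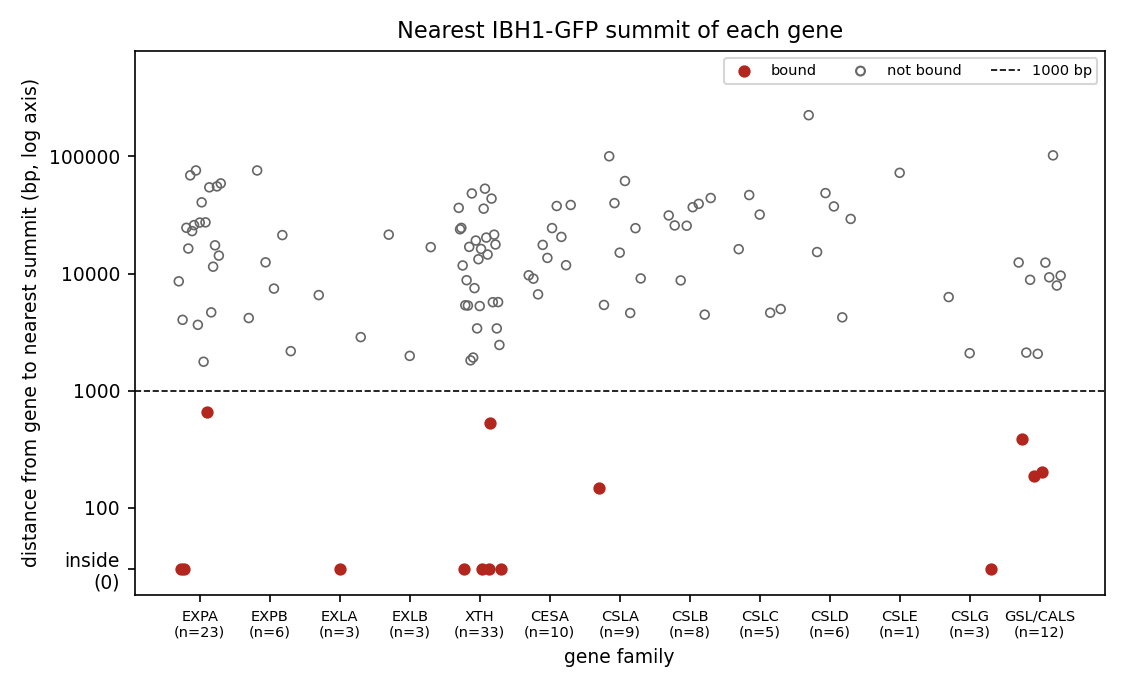
Distance in bp (log axis) from each of the 122 genes to its nearest summit, by family, with n the number of genes; filled points are bound, open points are not, the dashed line is 1000 bp, and genes holding a summit are drawn at the bottom. The 14 bound genes lie in the EXPA, EXLA, XTH, CSLA, CSLG and GSL/CALS families, and no CESA, EXPB, EXLB, CSLB, CSLC, CSLD or CSLE gene is below the line.

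Positions are given as chromosome, start and end of the deposited peak in the build TAIR9. The gene table used for names has no strand and no exons, so upstream and downstream flanks are not distinguished, and exonic and intronic positions could not be separated. The score of a peak is the authors' own, on the scale of the peak caller MACS (the −log10 of a p-value, multiplied by 10), and the height is the number of stacked fragments at the summit. Both rank peaks within this list only. Over all nuclear peaks the score had quartiles of 59.0, 72.8 and 99.6, and the height had quartiles of 22.0, 27.0 and 34.0 fragments.

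Of the 23 alpha-expansin genes, the main wall-loosening class, EXPA5, EXPA6 and EXPA15 were bound. EXPA6 (AT2G28950) had the highest score among the expansins and the XTH genes, and it carried 2 separate peaks. The first spanned chromosome 2, 12431598 to 12433443, lay wholly within the gene, and had a score of 258.14, rank 33 of 2944, with a summit 33 fragments high and 648 bp from the nearer end of the gene. The second, from 12433649 to 12434414, had a summit of the same height, 33 fragments, 118 bp outside the gene, and a score of only 65.22. Peaks of equal height at 1 gene thus had ranks of 33 and 1813 by score. Their widths were 1846 and 766 bp.

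EXPA5 (AT3G29030), an alpha-expansin whose expression is under brassinosteroid control, held a peak on chromosome 3 from 11011373 to 11012970 that lay wholly within the gene. Its score was 158.82, rank 208, and its summit was 50 fragments high, rank 183. This gene thus stood high in the list of 2944 by both measures. EXPA15 (AT2G03090) was the weak case. Its peak on chromosome 2 from 919145 to 919742 did not overlap the gene, its summit lay 656 bp outside, and it scored 56.7 at a height of 21 fragments.

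EXLA1 (AT3G45970) was the bound gene of the expansin-like A family, whose proteins resemble expansins but for which wall-loosening activity is not established. It had a peak on chromosome 3 from 16896103 to 16897519 that scored 143.08 at a height of 34 fragments and covered the gene's whole length of 1143 bp. Its summit, inside EXLA1, was also 268 bp from HTB9 (AT3G45980), a histone H2B gene. A second peak from 16897665 to 16898395 scored 66.18 with a height of 19, and its summit was 897 bp from EXLA1 but 192 bp from HTB9. The neighbouring EXLA3 lay 2866 bp from the first of these summits and was not bound.

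Other well-studied growth expansins had no summit within reach. The nearest summit was 4662 bp from EXPA11, 8586 bp from EXPA1 and 25925 bp from EXPA8. All 6 beta-expansin genes (EXPB) and all 3 EXLB genes were also without one. Absence from the list is not absence of IBH1, since peaks below the authors' threshold are not listed and the lowest deposited score was 50.01.

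In the XTH family the bound genes were XTH4, XTH8, XTH9, XTH23 and XTH24. XTH4 (AT2G06850), an endotransglucosylase gene of growing tissue, held a peak on chromosome 2 from 2765002 to 2765603 scoring 108.96 at a height of 22 fragments. XTH9 (AT4G03210) had the highest score of the family, 125.68, with a height of 26 fragments, at chromosome 4 from 1414757 to 1416242. Its summit was 533 bp outside XTH9 and nearer, at 182 bp, to hemf2 (AT4G03205). By score XTH9 and XTH4 had ranks 392 and 594 of 2944, and by height only 1522 and 2203.

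XTH23 (AT4G25810, listed as XTR6) had a peak on chromosome 4 from 13128253 to 13129247 with a score of 95.69. The summit, 20 fragments high, was 83 bp inside the gene's end and 432 bp from another gene, AT4G25800. XTH24 (AT4G30270), known as MERI5 from its expression in meristems, held a summit 29 fragments high in a peak from 14820118 to 14820750 on chromosome 4, with a score of 73.01. XTH8 (AT1G11545) held a peak on chromosome 1 from 3878605 to 3880016, 1412 bp wide, scoring 64.87 at a height of 22 fragments. Of the 5 XTH summits 4 were inside the gene, each within 500 bp of its nearer end. These 4 genes are only 1404 to 2295 bp long, so a large part of each is that near an end. Over all genes 68.4% of the summits inside a gene were within 500 bp of its nearer end. XTH22 (AT5G57560, listed as TCH4), a touch-induced gene that brassinosteroids and auxin raise, had its nearest summit 16902 bp away.

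No cellulose synthase gene was bound. CESA1, CESA3 and CESA6 make up the complex of the primary wall, and their nearest summits were 37759, 24451 and 38523 bp away. CESA4, CESA7 and CESA8, the subunits of the secondary wall complex, had theirs at 11788, 17576 and 9671 bp. For CESA2, CESA5, CESA9 and CESA10 the distances were 20560, 9047, 13603 and 6645 bp. The closest summit to any CESA gene was thus 6645 bp away, beyond each of the windows tried. The median distance was 15.6 kb, against 13.8 kb for all protein-coding genes, and 3 of the 10 genes had a summit within 10 kb, against 41.9% of all genes.

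Among the CSL genes, CSLA03 and CSLG3 were bound. CSLA03 (AT1G23480), of the family that makes the glucomannan backbone, had a tall summit of 55 fragments, rank 111 by height, in a peak on chromosome 1 from 8336369 to 8337056. The score was 80.59, rank 1189. This summit was 148 bp from CSLA03 and 31 bp from ARF1 (AT1G23490), an ADP-ribosylation factor gene, so its nearest gene is not CSLA03. CSLG3 (AT4G23990) held a summit 39 fragments high, 934 bp from its nearer end, in a peak from 12459315 to 12460509 on chromosome 4 with a score of 69.99. None of the 5 CSLC genes, whose proteins make the xyloglucan backbone, and none of the 6 CSLD and 8 CSLB genes were bound. These 8 include CAB3, a chlorophyll-binding protein gene that the name rule took in through the synonym CSLB3. They also include AT1G29820, taken in through the synonym CSLB4, although CSLB04 (AT2G32540) is a separate gene of the 8.

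The callose synthase genes held the strongest peak of all the families. GSL1 (AT4G04970), which acts in pollen development, had a peak on chromosome 4 from 2536519 to 2538199 with a score of 367.11, rank 7 of 2944, and a height of 59 fragments, rank 68. Its summit was 201 bp outside the gene, while 1275 bp of the peak's 1681 bp overlapped the gene, and no other protein-coding gene was within reach. GSL8 (AT2G36850), needed for callose at the cell plate and at plasmodesmata, had a summit 188 bp outside the gene in a peak on chromosome 2 from 15469243 to 15470435, scoring 82.09 at a height of 34 fragments. That summit was also 10 bp from a tRNA gene, AT2G36860, and 248 bp from another protein-coding gene, AT2G36854. CALS5 (AT2G13680), which makes the callose wall of developing pollen, was bound by rule only: the summit, in a peak from 5706478 to 5707302 on chromosome 2 scoring 53.64 at a height of 24 fragments, lay 390 bp outside CALS5 and inside AT2G13690, and the peak did not overlap CALS5.

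The callose synthase genes are long, with a median of 11614 bp against 2078 bp for all genes. Their gene bodies together measured 139 kb and held no summit, whereas the 24 kb of flanks within 1000 bp of their ends held 3. Over all protein-coding genes the densities were 31.2 summits per Mb of gene body and 32.1 per Mb of flank, where a summit near several genes counts for each. In the expansin genes 3 summits lay in 57.7 kb of gene body and 3 in 70 kb of flank. In the XTH genes 4 lay in 58.3 kb of gene body and 1 in 66 kb of flank. GSL5 (listed as GSL05), the callose synthase of wounding and pathogen attack, had its nearest summit at 9291 bp. For GSL10 it was at 8845 bp, and for CALS3 (listed as GSL12), which acts at plasmodesmata, at 2063 bp.

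**Figure D2:**
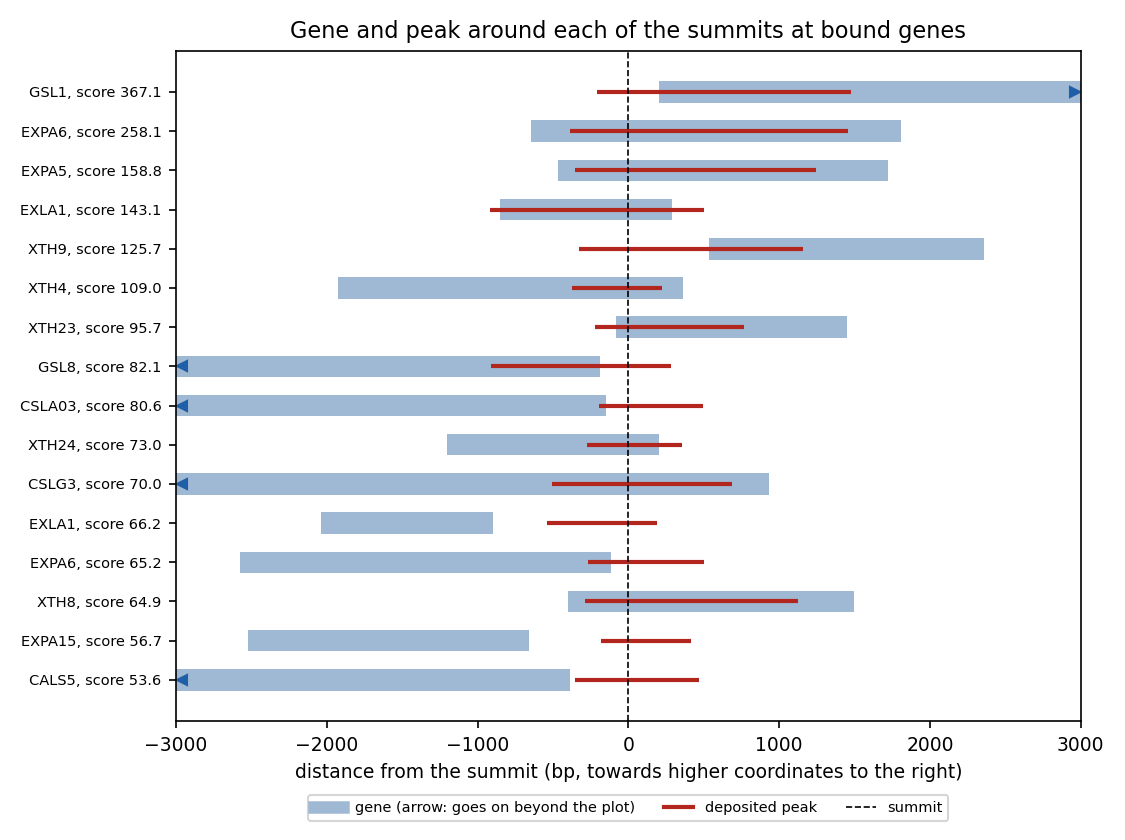
Genes (blue bars) and deposited peaks (red lines) in bp from the summit (dashed line), one row for each of the 16 summits at the 14 bound genes, ordered by the deposited score in the row label; arrows mark genes that go on beyond the plot, and strand is not shown. A total of 8 summits lie inside the gene and 8 outside it, and those of the 3 callose synthase genes are all outside.

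The 14 genes had 16 summits, 8 inside the gene and 8 outside (53.6% of such pairs were inside over all genes). Of the 8 inside, 6 were within 500 bp of the nearer end of the gene (68.4% over all genes). The median score of the 16 peaks was 81.3, with quartiles of 65.9 and 130.0, and 6 of them scored 100 or more (37.5%, against 24.8% of all nuclear peaks). Their heights had a median of 31.0 fragments and ran from 19 to 59. Their widths had a median of 1094 bp, against 885 bp for all nuclear peaks. Those 6 peaks were at GSL1, EXPA6, EXPA5, EXLA1, XTH9 and XTH4. Counting only peaks with a score of 100 or more, 6 of the 122 genes were bound (4.92%), against 3.38% of all genes, and 3 of the 35 expansin genes were (8.57%).

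**Figure D3:**
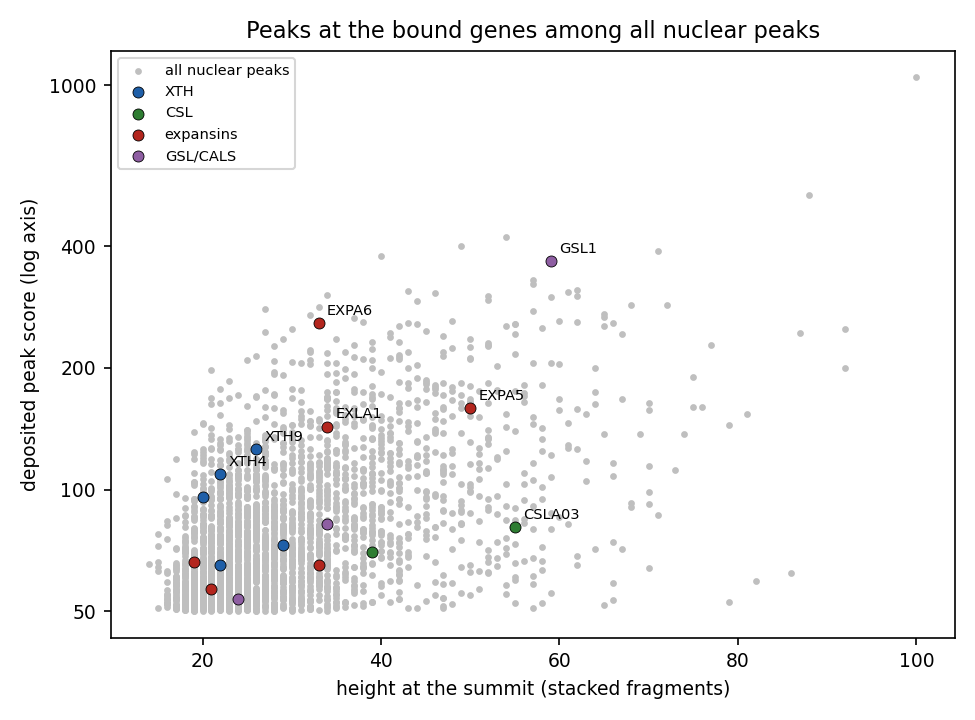
Deposited score (log axis) against the height at the summit in fragments for all 2944 nuclear peaks (grey) and for the 16 peaks at the bound genes (coloured by family). GSL1 is high on both axes, EXPA6 has a high score at a height of 33 fragments, and CSLA03 has a tall summit of 55 fragments with a score of 80.59.

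Some unbound genes of the families lay within 2000 bp of a summit. Nothing lay between EXPA15, the farthest of the bound genes at 656 bp, and EXPA13 at 1766 bp from a strong peak with a score of 175.47 whose summit was nearer, at 116 bp, to AT3G03210. XTH14 lay 1814 bp from the summit that is inside XTH23. XTH15 lay 1918 bp from a summit of score 87.55, which was 22 bp from AT4G14120. EXLB3 (listed as PNP-A) lay 1981 bp from a summit of score 62.84 that was inside AT2G18670. With a window of 2000 bp these would make 18 bound genes (14.8%, against 16.7% of all genes). With 500 bp there were 12 (9.84% against 10.6%), and for summits inside the gene alone 8 (6.56% against 7.05%). Giving each summit to its nearest gene left 11 (9.02% against 9.26%). Peaks at or above the median score left 10 (8.20% against 6.7%). The midpoint of the peak in place of the summit gave 14 (11.5% against 12.8%), and so did any overlap of the peak with the gene or its window (14.7% of all genes).

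Some of these genes stand in tandem arrays, and within the 1000 bp window no array had more than 1 bound gene. With 2000 bp the summit inside XTH23 also reached XTH14 of the same array. Members of a family within 10 kb of each other formed 10 arrays of 27 genes. Of these 27 genes 4 were bound, and of the 95 genes outside arrays 10 were. Over all protein-coding genes 12.7% were bound, and arrays were not counted there. In 4 arrays 1 gene was bound and its neighbours were not: CSLG3 beside CSLG2 and CSLG1, EXLA1 beside EXLA3, XTH23 beside XTH14, and XTH24 beside XTH18 and XTH19. The other 6 arrays had no bound gene. Among them were EXPA21 to EXPA25, with the nearest summit 14.2 kb away, and the array of XTH12, XTH13, XTH25 and XTH22, with the nearest at 16.9 kb. Copies that are nearly identical can lose or exchange reads at alignment, and how such reads were treated is not given in the sources used here.

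Bound genes were also counted by chromosome, and whether they are unevenly spread was not tested. There were 2 of 21 on chromosome 1 (9.52%, against 11.8% of all genes there), 5 of 24 on chromosome 2 (20.8% against 14.2%), 2 of 18 on chromosome 3 (11.1% against 11.5%) and 5 of 33 on chromosome 4 (15.2% against 17.3%). None of the 26 genes on chromosome 5 was bound, against 10.9% of all genes there. Those 26 genes include 5 CESA genes, the EXPA21 to EXPA25 array and the XTH12 to XTH22 array. The nearest miss on that chromosome was CALS3, at 2063 bp.

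Over all genes the share bound was higher nearer to gene-poor windows, here windows of 500 kb with under 60 protein-coding genes. These windows, 36 of 240, themselves held 173 of the 2944 nuclear summits. The place of the families relative to the windows was compared with that of all genes. In or within 2 Mb of such a window, 7 of 23 genes of the families were bound (30.4%, against 21.9% of all genes). These were EXPA5, EXPA15, EXLA1, XTH4, XTH9, GSL1 and CALS5. At 2 to 5 Mb 1 of 30 was bound, CSLA03 (3.33%, against 15.1%). Beyond 5 Mb 6 of 69 were bound (8.70%, against 8.72%): EXPA6, XTH8, XTH23, XTH24, CSLG3 and GSL8. Of the 6 genes with a score of 100 or more, EXPA6 was the one far from a gene-poor window, and whether position bears on the scores was not tested.

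**Figure D4:**
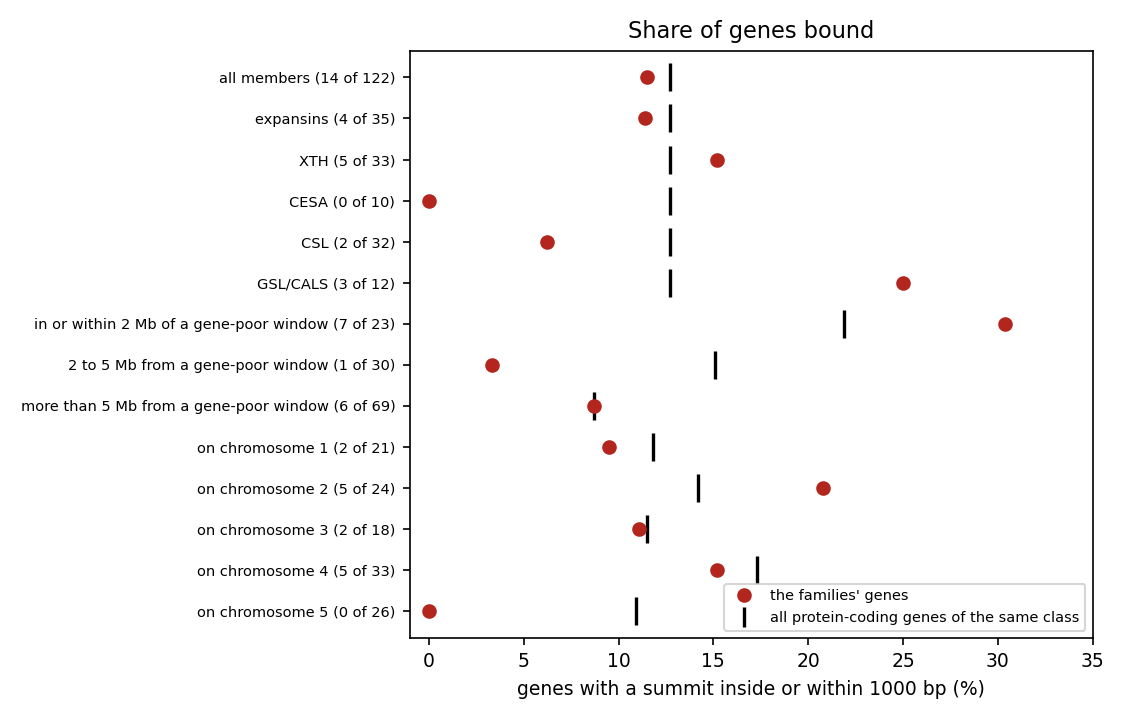
Share of genes bound in percent (red points), for the 122 genes, by family, by distance to a gene-poor window and by chromosome, with the number bound of the number of genes in each label; black bars give the share over all protein-coding genes of the same class (over all genes for the families). The points of CESA and of chromosome 5 are at 0, and that of genes in or within 2 Mb of a gene-poor window, 30.4%, is the highest.

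Genes of related wall pathways, taken by name, were bound in 32 of 175 cases (18.3%, against 12.7% of all genes). With scores of 100 or more this was 7 of 175 (4%, against 3.38%), and beyond 5 Mb of gene-poor windows 14 of 119 (11.8%, against 8.72%). Arabinogalactan proteins, glycoproteins of the cell surface, gave 10 of 50 and included the highest scores: AGP10 (301.36), SOS5, also named FLA4, a fasciclin-like protein needed for normal cell expansion in roots under salt (276.61), and FLA10 (160.75). Pectin genes gave 8 of 36, among them a pair of adjacent pectin methylesterase genes that share a summit. Genes of xyloglucan side chains gave 2 of 8, namely XXT5 and MUR3, partners of the cellulose synthase complex gave 2 of 14 including CSI1, and endoglucanases 2 of 21. Beta-galactosidases and the xyloglucan exo-hydrolase gave 3 of 18, beta-1,3-glucanases and callose-binding proteins 2 of 9, and wall-sensing receptors and their partners 3 of 20, among them THE1, a receptor kinase that responds to defects in cellulose synthesis. No gene of these lists was one of the 122.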

How the data were processed

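ChIP-seq peaks of IBH1-GFP seedlings were analysed. The submitters' processing notes name the build TAIR9 and the tools CASAVA 1.8.2, Bowtie and MACS. Neither their settings nor the role of the control library in peak calling is given in the sources used here. The peak score and the summit signal (stacked fragments) are the authors' deposited values, and no count of reads per library was used. Genes came from a RefSeq table of TAIR10.1, used for names, bounds and neighbours only. The share of summits inside genes was 67.5% with no shift and at most 63.0% with shifts of 500 bp or more. Distances were computed with Python 3.11.15, pandas 2.3.3 and numpy 2.4.6, the exact interval with scipy 1.17.1, and the assignment was tested on simulated data. The members and lists were chosen with earlier results of these data known. Genes named are each bound member, each CESA gene, unbound members within 2000 bp of a summit, 9 textbook members, the 3 related genes with the highest scores, and genes nearer to a member's summit. Further related genes, EXLA3, CAB3, AT2G36854, AT4G25800, array neighbours and the tRNA gene were named after their values were seen. The planned motif counts were not run because no sequence was used here.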

Additional observations from a re-analysis of the deposited data

How the results depend on the processing

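The count of 14 bound genes was unchanged with the midpoint of the peak, with any overlap of the peak, with arrays counted as 1 locus (105 loci), and, in alternatives chosen after seeing the data, with names carrying AT in front (124 genes, which adds EXP3 and the glutamine synthetase gene GS2) and without CAB3. It was 12 with a window of 500 bp, 18 with 2000 bp, 10 at or above the median score, 11 with the nearest gene only, which drops CALS5, CSLA03 and XTH9, and 13 with symbols only, which drops XTH23. It moved by more than 1.5 times to 6 with scores of 100 or more, 8 for the gene alone, 9 without chromosome 4, and 6 beyond 5 Mb of gene-poor windows, each with fewer peaks, bases or genes by construction. Over all genes the 3499 bound became 927, 1840 and 1934 for scores from 100 upwards, for scores from the median upwards and for the gene alone, and 1379 beyond 5 Mb. The share of the families was below that of all genes except with scores of 100 or more (4.92% against 3.38%) and at or above the median score (8.20% against 6.70%). By family, 13 of 65 values moved by more than 1.5 times. XTH fell from 5 to 2 with scores of 100 or more (6.06% against 3.38% of all genes) and without chromosome 4 (9.52% against 11.9%). Beyond 5 Mb 3 of 19 XTH genes were bound (15.8% against 8.72%). Callose synthases fell from 3 to 0 for the gene alone (7.05% of all genes) and to 1 with scores of 100 or more (8.33% against 3.38%). Beyond 5 Mb 1 of 8 callose synthase genes was bound (12.5% against 8.72%). Expansins fell from 4 to 1 of 21 beyond 5 Mb (4.76% against 8.72%). Their share was above that of all genes with scores of 100 or more (8.57% against 3.38%) and from the median upwards (8.57% against 6.7%). It was also above for the gene alone (8.57% against 7.05%) and with the nearest gene only (11.4% against 9.26%). With 2000 bp it was 17.1% against 16.7%, and it was 13.8% against 11.9% without chromosome 4. It was below with 500 bp (8.57% against 10.6%), the midpoint (11.4% against 12.8%) and any overlap (11.4% against 14.7%). CSL fell from 2 to 0 with scores of 100 or more and to 1 in the other 5 settings that moved it, with a share below that of all genes in each. Of the related lists, with all of them together, 31 of 90 values moved; with scores of 100 or more arabinogalactan proteins fell from 10 to 5, pectin genes from 8 to 1 and wall-sensing genes from 3 to 1, the other 5 lists fell to 0, and the total fell from 32 to 7. At or above the median score the total was 15 of 175 (8.57%, against 6.7% of all genes). The CESA count was 0 in each setting run. No paired analysis was possible because there is only 1 library per group. Arrays as loci give no value for each family or for all genes.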

Other observations

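Gene length and place were set beside the counts. At the overall share of genes bound, 15.6 of the 122 genes would be bound. At the shares of genes in the same of 5 length classes the number was 16.9, and at the shares by length and distance to gene-poor windows together it was 17.1, against the 14 found. For the expansins this last number was 4.21 against 4 found, for XTH 4.31 against 5, for CESA 1.42 against 0, for CSL 4.97 against 2 and for the callose synthases 2.16 against 3. In the class of longest genes, 5 of 49 genes of the families were bound (10.2%, against 16.0% of all genes of that class). These are descriptions without a test.

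EXPA19, a transcribed pseudogene in the gene table, was outside the name rule because it is not protein-coding. EXP3, an alpha-expansin gene whose name does not follow the rule, had its nearest summit 3457 bp away.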
